A study of Saccharomyces cerevisiae with 4 samples.

Results

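The genes described here encode the zinc, copper, manganese and low-affinity iron transporters of Saccharomyces cerevisiae, together with the activator of the zinc genes: FET4, ZRT1, ZRT2, ZRT3, ZAP1, CTR1, CTR2, SMF1, SMF2 and SMF3. They were chosen by name, as genes of divalent metal uptake and of vacuolar metal export. All 10 were measured, each by 1 probe set, among 5343 genes tested. The choline transporter gene HNM1 shares the alias CTR1 and was left out.

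Yeast takes up metals through pairs of high- and low-affinity carriers in the plasma membrane and stores the excess in the vacuole, from which other carriers release it when supply falls. The activator Zap1 switches on zinc uptake genes, including its own, when zinc is scarce; Mac1 does so for copper, and Aft1 and Aft2 for iron. FET4 stands at a crossing of these circuits, since Aft1 and Zap1 activate it and the hypoxic repressor Rox1 shuts it off in air.

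Total RNA was taken from WT and nps1-13 cells, pre-grown in glucose medium (YPD) and kept for 4 h in ethanol-glycerol medium (YPEG) at 28°C, and was hybridized to Affymetrix Yeast Genome 2.0 arrays, 2 per strain. WT was the diploid BY4743, which carries 1 functional copy each of MET15 and LYS2. The strain labelled nps1-13, BYI-3 in the strain list, is given there as a MATa/α diploid homozygous for nps1-13, an allele of the RSC chromatin-remodelling ATPase gene NPS1 (STH1), and for met15Δ0. Both strains are listed as homozygous for his3Δ1, leu2Δ0 and ura3Δ0. Whether a strain's arrays stem from different cultures is not given in the sources used here, and p-values measure only the spread between these arrays, which may be technical. NPS1 (STH1) itself had signals of 5017 and 4373 in WT and of 7419 and 6524 in nps1-13; since nps1-13 is an allele and not a deletion, this does not check the labels.

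The strains differed in more than the nps1-13 allele. The a1 mating-type transcript (HMRA1 probe set) had signals of 1599 and 1896 in WT and of 0.9 and 6.1 in nps1-13, while the alpha-factor gene MF(ALPHA)1 had 45.0 and 41.6 in WT against 6109 and 6228. The nps1-13 arrays thus do not show the pattern of a MATa/α diploid, and the signals do not give the ploidy of that strain. MET17 (MET15) had a signal of 3961 ± 110 (SD, n = 2) in WT and 16.9 ± 1.20 in nps1-13, and LEU2, listed as deleted in both strains, 25.6 ± 16.3 and 4336 ± 156. Each difference given here is between these strains. The parts in it of nps1-13, mating type, the auxotrophic markers and any difference in ploidy cannot be told apart. The array medians also differed, at 3051 and 2770 in WT and 2158 and 2024 in nps1-13, which put the middle of all genes at -0.41 on the log2 scale, nps1-13 over WT, in the deposited signals. Values are therefore given as deposited and with each array centred on its median, which adds 0.47 to every log2 fold change and moves that middle to 0.06.

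As deposited, nps1-13 had lower signals of 8 of the 10 genes and a higher signal of 0 by limma (adjusted p under 0.05 over 5343 genes), where 64.3% of all genes were lower and 9.41% higher. Centring gave 4 lower genes and 4 higher ones, against 34.7% and 42.6% of all genes. After quantile normalization, which gives all arrays the same distribution, 4 were lower and 2 higher, against 37.7% and 36.4%. The share of these genes that passed was thus near that of all genes, and their median log2 fold change (-0.50 as deposited, -0.02 centred) lay close to that of all genes. What set them apart from each other was the spread, from -4.39 for FET4 to 0.63 for ZRT2 on the centred scale. FET4, SMF1, CTR1 and SMF2 were lower on all 3 scales. ZRT2 and ZAP1 were higher on the centred and quantile scales and did not pass as deposited. ZRT1, ZRT3, CTR2 and SMF3 had centred values of -0.12, 0.23, 0.14 and 0.07.

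**Figure D1:**
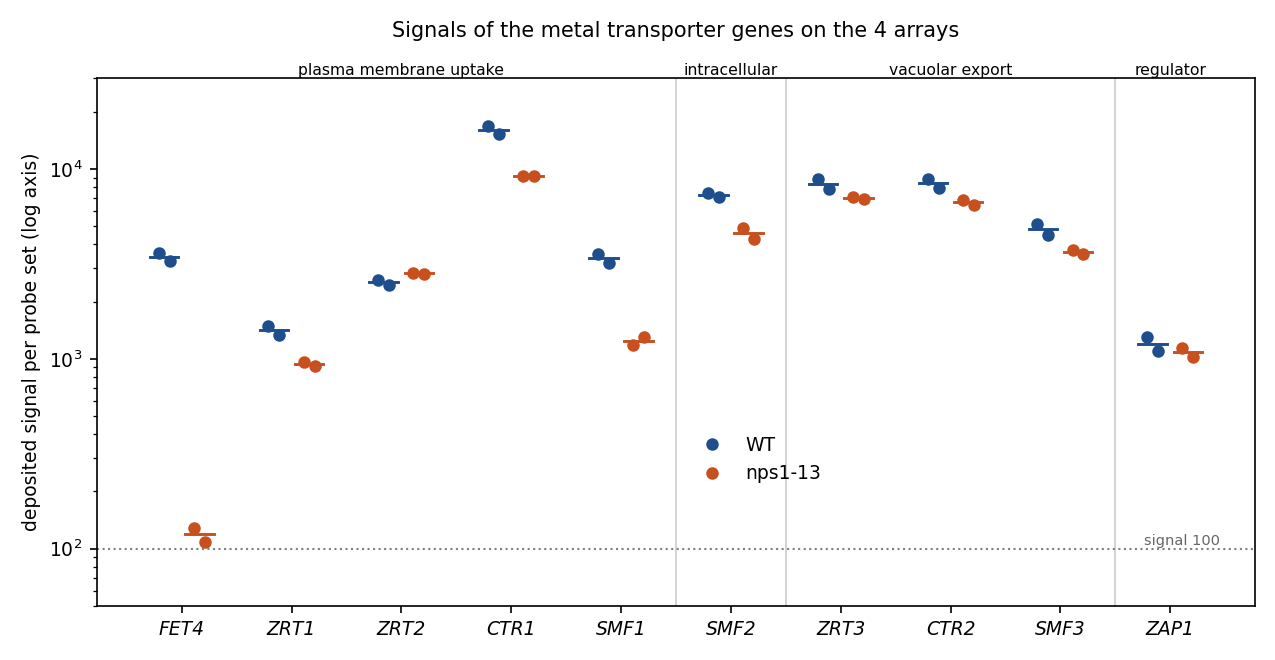
Deposited signal (log axis) of the probe set of each gene on the 2 WT arrays (blue) and the 2 nps1-13 arrays (orange), with the mean of each strain as a bar and a dotted line at a signal of 100. FET4 drops from 3622 and 3283 to 128 and 109, while every signal of the other genes is at 919.5 or higher.

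**Figure D2:**
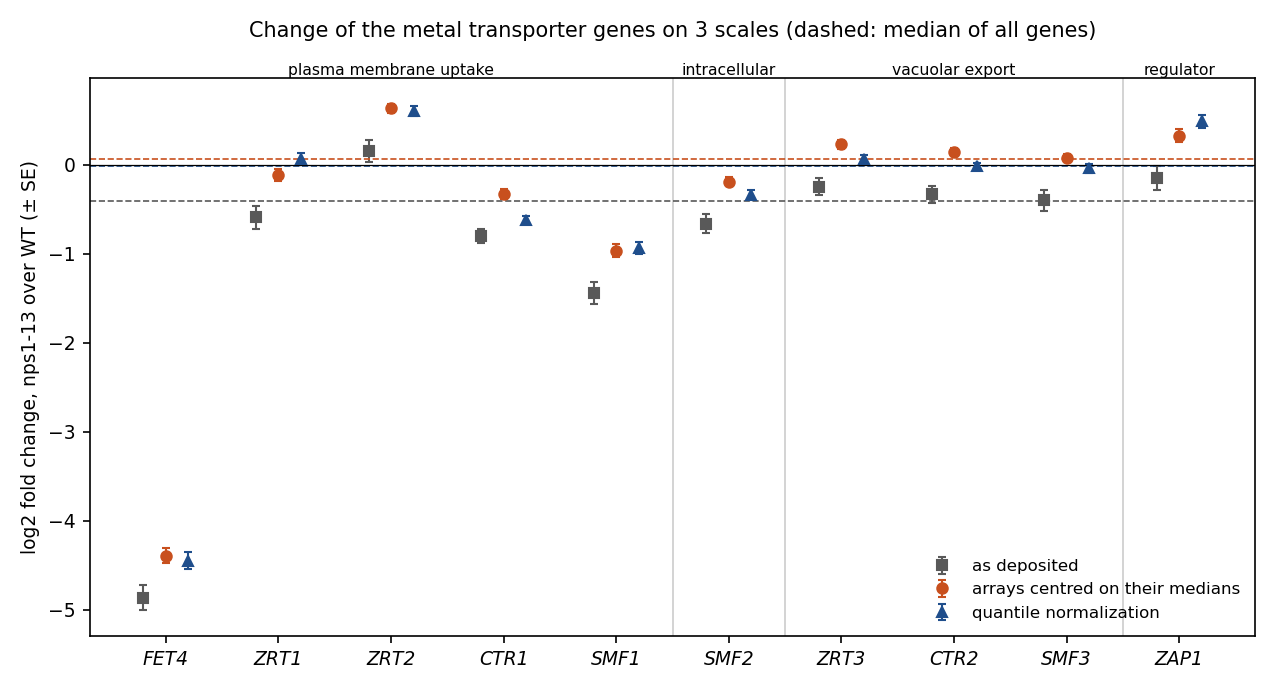
Log2 fold change of each gene, nps1-13 over WT, with its standard error from limma, as deposited (grey squares), with the arrays centred (orange circles) and after quantile normalization (blue triangles). The dashed lines mark the median of all 5343 genes on each scale (-0.41, 0.06 and -0.01). FET4, SMF1, CTR1 and SMF2 lie below it on all 3, and ZRT2, ZAP1 and ZRT3 above it.

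Among the plasma membrane carriers, FET4 showed the largest change. It encodes the low-affinity iron transporter, which also admits copper and zinc. WT cells gave signals of 3622 and 3283, and nps1-13 cells of 128 and 109. The strains did not overlap, and both nps1-13 values were close to 100, below which 199 and 213 of the 5558 probe sets of these arrays lay. The mean fell from 3453 ± 239 (SD, n = 2) to 118.6 ± 13.9, that is 29.1-fold as deposited and 21.0-fold with the arrays centred. The log2 fold change was -4.87 (standard error 0.14) as deposited and -4.39 (standard error 0.09, limma adjusted p = 7.6e-10) when centred, the fifth lowest of all genes. Because the nps1-13 signal is near the dim end of the arrays, where background is not told from transcript, how far it fell is uncertain. Adding 32 to all deposited signals gave -4.53, beside -4.87 without it.

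The genes whose signals over the 4 arrays were most like those of FET4, by the Euclidean distance between log2 signals centred per array and per gene, were FRE7, CLB6, YIR042C, COS10 and PHM6, at distances of 0.64, 0.79, 1.21, 1.45 and 1.70. FRE7 encodes a copper-regulated metalloreductase and CLB6 an S-phase cyclin. With only 2 arrays a strain, this likeness holds little beyond the size of the fall, and each of the 5 fell by at least 3.08 on the log2 scale when centred. Of these genes, FRE7 alone kept a signal well above 100 on the nps1-13 arrays, 454 and 438, against 9200 and 7771 in WT.

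SMF1 encodes the plasma membrane carrier of manganese, of the Nramp family. Its signals were 3548 and 3206 in WT and 1188 and 1295 in nps1-13, so that every nps1-13 value lay well below both WT values. The mean fell 2.72-fold as deposited and 1.95-fold when centred. Its log2 fold change was -1.44 (standard error 0.13) as deposited, -0.97 (standard error 0.07, limma adjusted p = 1.7e-06) when centred and -0.93 after quantile normalization. CTR1, the high-affinity copper transporter, had signals of 16747 and 15259 in WT and of 9222 and 9128 in nps1-13. Again the strains did not overlap. Its log2 fold change was -0.80 as deposited, -0.33 (standard error 0.06, limma adjusted p = 5.9e-04) when centred and -0.62 after quantile normalization.

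The 2 zinc carriers of the plasma membrane had unlike values. ZRT1, the high-affinity transporter, had signals of 1492 and 1339 in WT and of 957 and 920 in nps1-13, lower on both arrays as deposited. Its log2 fold change was -0.59 as deposited, which passed, but -0.12 (limma adjusted p = 0.13) when centred and 0.06 after quantile normalization (adjusted p = 0.39), neither of which did. ZRT2, the low-affinity transporter, had 2604 and 2451 in WT and 2827 and 2805 in nps1-13, and both nps1-13 values exceeded both WT values although most genes went the other way. Its log2 fold change was 0.16 (limma adjusted p = 0.25) as deposited, 0.63 (standard error 0.05, adjusted p = 3.5e-06) when centred and 0.61 after quantile normalization. ZAP1, the gene of the activator, had 1302 and 1102 in WT and 1140 and 1025 in nps1-13, which overlap. Its log2 fold change was -0.15 (limma adjusted p = 0.30) as deposited, 0.33 (standard error 0.07, adjusted p = 0.0020) when centred and 0.49 after quantile normalization.

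The carriers that release metals from the vacuole had small changes whose sign turned with the scale. ZRT3, which exports zinc, had signals of 8833 and 7869 in WT and of 7155 and 6908 in nps1-13. CTR2, which exports copper, had 8875 and 7952 in WT and 6901 and 6465 in nps1-13. SMF3, which exports iron, had 5146 and 4507 in WT and 3722 and 3573 in nps1-13. For all 3 genes the nps1-13 signals lay below the WT signals as deposited and above them once centred, as did those of many other genes. Their log2 fold changes were -0.25, -0.33 and -0.40 as deposited, each called lower, and 0.23, 0.14 and 0.07 when centred, where ZRT3 and CTR2 were called higher (limma adjusted p = 0.0019 and 0.020) and SMF3 did not pass (0.18). After quantile normalization none of the 3 passed. The call of ZRT3 as lower was lost without WT replicate 1 (limma adjusted p = 0.12), without nps1-13 replicate 1 (0.12), without nps1-13 replicate 2 (0.22) and without a trend in the variance (0.13), and those of CTR2 and SMF3 without nps1-13 replicate 2 (0.11 and 0.085). The call of CTR2 as higher was lost without WT replicate 1 (0.089) and without WT replicate 2 (0.13).

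SMF2, the Nramp carrier of intracellular vesicles, which supplies manganese inside the cell, stood between these groups. Its signals were 7457 and 7075 in WT and 4893 and 4290 in nps1-13, without overlap. Its log2 fold change was -0.66 as deposited, -0.19 (standard error 0.05, limma adjusted p = 0.0080) when centred and -0.33 after quantile normalization. The centred call was lost without WT replicate 2 (limma adjusted p = 0.075).

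Counted by arrays, the nps1-13 signals lay below both WT signals for 8 of the 10 genes as deposited and above them for 1, where 72.5% and 13.6% of all genes did so; with the arrays centred the counts were 5 and 5, against 40.4% and 48.8%. The methods name a 2-fold threshold on the expression ratio, applied here to the ratio of mean signals without a test, by which FET4 and SMF1 were below 0.5 as deposited (16.7% of all genes), and FET4 alone when centred (4.98%), where SMF1 had 0.513. No gene of the 10 was above 2 on either scale (1.98% and 4.87% of all genes). Between the 2 arrays of a strain, the log2 signals of the 10 genes differed by -0.24 to 0.12.

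An offset of a whole array cancels in the ratio of 2 signals on it, so the change of that ratio between strains does not depend on the centring. It was computed for the 45 pairs of these genes, as a description without a test, and in 44 it had the same sign in all 4 combinations of a WT with an nps1-13 array. The same count was not made over pairs of all genes, so it does not set these genes apart. With the arrays centred, the nps1-13 signals already lay below both WT signals for 40.4% of all genes and above both for 48.8%. SMF1 was lower relative to its family members, with changes of -0.78 on the log2 scale against SMF2 (-0.97 to -0.59 over the 4 combinations) and of -1.04 against SMF3 (-1.16 to -0.93). The ratio of CTR1 to CTR2 changed by -0.47 (-0.52 to -0.42), and that of ZRT1 to ZRT2 by -0.75 (-0.81 to -0.69). The ratio of ZRT2 to ZRT3 changed by 0.40 (0.34 to 0.46). FET4 was lower against every other gene of the 10, least so against SMF1, at -3.42. The exception was ZRT1 to SMF2, at 0.07, which ranged from -0.03 to 0.18. Quantile normalization, which acts on signal ranks, turned the sign for 2 of the 44 pairs, ZRT1 with CTR2 and ZRT1 with SMF3. It also altered sizes. ZRT1 to ZRT3 went from -0.35 to -0.0041 and ZRT1 to CTR1 from 0.21 to 0.68. The changes given above became -0.60 for SMF1 to SMF2, -0.89 for SMF1 to SMF3 and -0.60 for CTR1 to CTR2. ZRT1 to ZRT2 had -0.54, ZRT2 to ZRT3 0.54, FET4 to SMF1 -3.51 and ZRT1 to SMF2 0.40.

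Other genes of the same pathways were described from 8 lists holding 89 measured genes. The Zap1 targets outside the 10 genes described above were mostly higher when centred. Of 10 measured, 8 were higher, 1 lower and 1 did not pass, beside 42.6% of all genes higher and 34.7% lower. Their median log2 fold change was 0.33, beside an all-gene median of 0.06. As deposited, 4 were lower and 0 higher, beside 64.3% and 9.41% of all genes, with a median of -0.14 beside -0.41. After quantile normalization 6 were higher and 1 lower, beside 36.4% and 37.7% of all genes. The zinc genes described above, which this count leaves out, did not all move alike. When centred, ZRT2, ZAP1 and ZRT3 had 0.63, 0.33 and 0.23 and were called higher. ZRT1 had -0.12, which did not pass, and FET4, which Zap1 also activates, -4.39. ZPS1, a zinc-regulated cell-surface protein gene, had a log2 fold change of 0.51 when centred (0.03 as deposited), ZRG17, a subunit of the zinc transporter of the endoplasmic reticulum, 0.47 (-0.01) and IZH2 0.43 (-0.05). DPP1, a vacuolar lipid phosphatase gene, was the one called lower (-0.22 when centred). VEL1 had signals of 46.0 and 47.6 in WT and of 25.2 and 24.5 in nps1-13, all dim, and did not pass when centred (-0.44). In zinc storage, of 9 genes 5 were higher and 3 lower when centred, beside 42.6% and 34.7% of all genes. As deposited 1 was higher and 5 lower, beside 9.41% and 64.3%, so both counts are near the background. IZH1, IZH2, ZRC1 and ZRG17, all higher when centred, are in both this list and that of Zap1 targets. Higher on both scales was YKE4, a zinc transporter of the endoplasmic reticulum, which rose from 3010 and 2758 in WT to 4783 and 4394 in nps1-13, a log2 fold change of 1.14 when centred and 0.67 as deposited.

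Mac1 targets of copper starvation besides CTR1 numbered 5, of which 5 were lower as deposited, where 64.3% of all genes were, 5 after quantile normalization (37.7% of all genes) and 4 when centred (34.7%). Their median log2 fold change was -0.76 when centred, beside 0.06 for all genes, and -1.23 as deposited, beside -0.41. FRE7 had a log2 fold change of -3.77 when centred, IRC7 of -1.02, the high-affinity copper transporter gene CTR3 of -0.76 and the metalloreductase gene FRE1 of -0.60; REE1 had 0.13 and did not pass. MAC1 itself had -0.18 when centred (limma adjusted p = 0.024) and -0.66 as deposited. Among 11 measured genes of copper sensing, buffering and delivery, 5 were lower and 4 higher when centred, and 8 and 0 as deposited, near the shares of all genes (34.7% and 42.6%, and 64.3% and 9.41%). The chaperone genes COX17, which serves cytochrome c oxidase, and ATX1, which serves the secretory pathway, had -0.65 and -0.52, the copper pump gene CCC2 had -0.61, and CUP2, the activator of metallothionein genes, 0.56, all when centred; as deposited CUP2 had 0.08 and did not pass. The metallothionein genes CUP1-1 and CUP1-2 were not measured under these names.

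**Figure D3:**
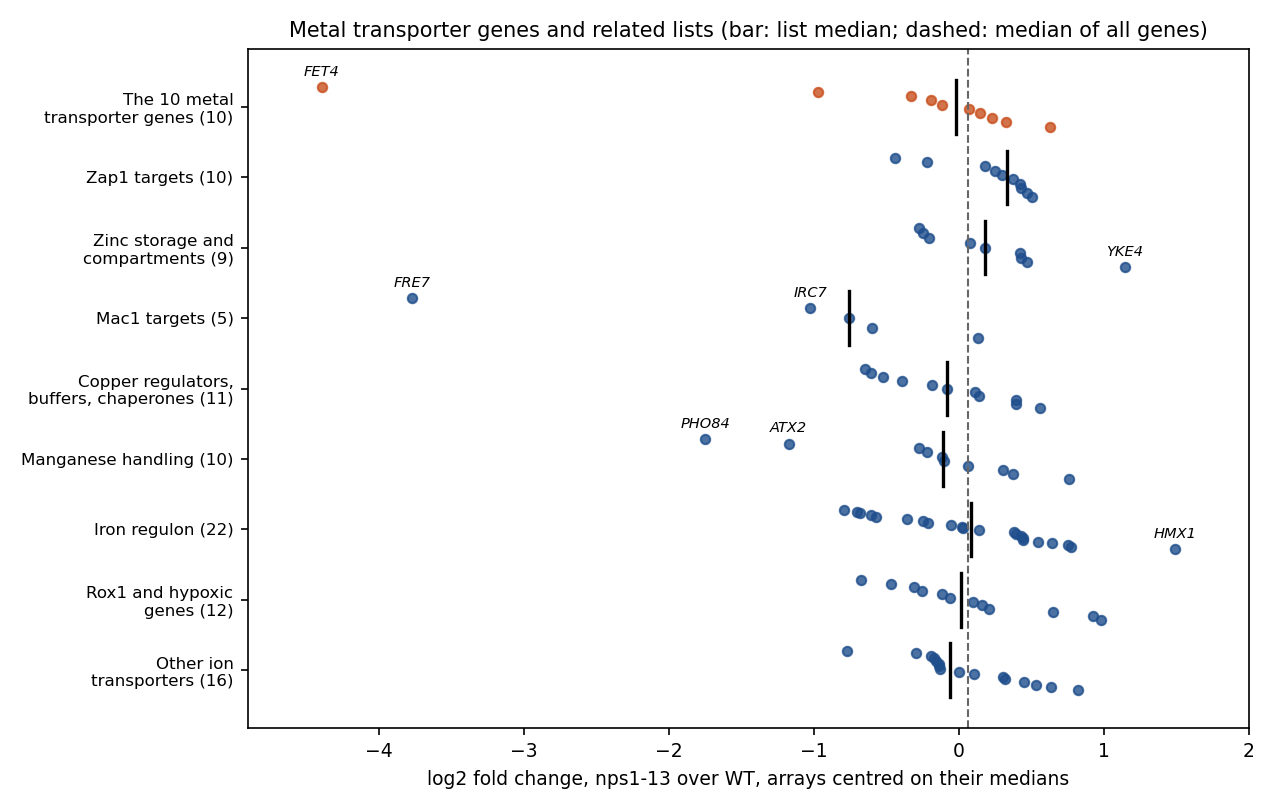
Log2 fold change, nps1-13 over WT, after each array was centred on its median, for each gene (points) in the 10 metal transporter genes (orange) and in the 8 related lists (blue), with the list median as a bar and the median of all genes as a dashed line at 0.06. The Mac1 targets have a median of -0.76 and the Zap1 targets of 0.33, and genes beyond 1 in size are named.

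Among 10 genes of manganese handling, 4 were lower and 3 higher when centred, and 7 and 1 as deposited, beside the same shares of all genes as above, to which they were close. PHO84, a phosphate carrier of the plasma membrane that also admits manganese, had signals of 12304 and 11720 in WT and 2723 and 2434 in nps1-13, a log2 fold change of -1.75 when centred (-2.22 as deposited). ATX2, a Golgi manganese transporter gene, had -1.17 when centred and CCC1, the vacuolar importer of iron and manganese, 0.76. The Smf sorting factor gene BSD2 had 0.37 when centred and -0.10, which did not pass, as deposited. The genes TRE1 and TRE2, which act with it, had -0.27 and -0.10 when centred, where TRE2 did not pass, and -0.75 and -0.58 as deposited, both called lower.

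Of 22 genes of the iron regulon, 11 were higher and 8 lower when centred, and 3 and 12 as deposited, with medians of 0.08 and -0.39. These counts lie near the 42.6% and 34.7%, and the 9.41% and 64.3%, of all genes. The heme oxygenase gene HMX1 had a log2 fold change of 1.49 when centred, TIS11, which promotes decay of mRNAs of iron-using proteins, 0.77, the cell wall mannoprotein gene FIT1 0.75 and the enterobactin transporter gene ENB1 -0.79. The high-affinity pair FET3 and FTR1 had -0.21 and -0.57 when centred. The regulator genes AFT1 and AFT2 had 0.14 and 0.44, both called higher when centred and neither called higher as deposited (-0.34, called lower, and -0.03). FET4, at -4.39, thus lay far below every one of the 22.

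ROX1, whose product represses FET4, had signals of 8505 and 7666 in WT and of 3862 and 3439 in nps1-13, with a log2 fold change of -0.67 when centred and -1.15 as deposited. Among 12 genes of Rox1, related regulators and hypoxic targets, 4 were higher and 4 lower when centred, and 2 and 9 as deposited, again near the shares of all genes (42.6% and 34.7%, and 9.41% and 64.3%). The hypoxic genes COX5B and ANB1 had 0.92 and 0.98 when centred (0.45 and 0.50 as deposited), AAC3 had 0.65 (0.18, which did not pass) and HEM13 -0.31 (-0.78); the signals of ANB1 and AAC3 lay between 134.5 and 243. In the list of other ion transporters, 6 of 16 genes were higher and 5 lower when centred and 1 and 11 as deposited, near the same shares of all genes, with a median of -0.06 when centred. On the centred scale the largest changes were in the potassium transporter gene TRK2 (0.82), the endosomal exchanger gene NHX1 (-0.77), the potassium channel gene TOK1 (0.63) and ALR2, of magnesium uptake (0.53). As deposited NHX1 had -1.25 and TRK2 0.35, while TOK1 (0.16) and ALR2 (0.06) did not pass.

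The genes flanking each transporter gene were compared to see whether neighbouring genes shared its change. None of the 10 genes overlaps another gene in the RefSeq R64 gene table. FET4 lies near the right end of chromosome XIII, with 5 further protein-coding genes to the end. Its left neighbour ADH6, an alcohol dehydrogenase gene, had signals of 14020 and 12956 in WT and of 13392 and 13619 in nps1-13, a log2 fold change of 0.48 when centred and of 0.0029, which did not pass, as deposited, and the right neighbour YMR320W was not measured under this name. ZRT1 lies near the left end of chromosome VII, with 9 protein-coding genes before it; its neighbours were the Zap1 target ADH4, at 0.25 when centred and -0.23, not called, as deposited, and FZF1, a sulfite resistance activator gene, at -1.39 and -1.86. Beside SMF1, HRP1, an mRNA processing factor gene, had -1.40 when centred and the ribosomal protein gene RPS19A had 0.45, which passed neither as deposited (-0.03) nor after quantile normalization. Beside CTR1, AXL1, a protease gene of a-factor maturation, had 1.69 when centred and 1.21 as deposited. Whether this change of AXL1 belongs to the mating-type difference of the strains was not tested. The 2 neighbours of SMF2, FSH1 and YHR050W-A, had -1.13 and -0.85. Beside SMF3, RSC58, the gene of an RSC subunit, had 0.17 when centred, called higher, and -0.31 as deposited, called lower. MLH2, a mismatch repair gene, had -0.49 when centred. The remaining neighbours measured lay between -0.74 (TPO5, a polyamine exporter gene beside ZRT3) and 0.37 (IKS1, beside ZAP1, at -0.10 and not called as deposited) when centred. Where both neighbours were measured, they lay on opposite sides of the transporter gene for ZRT1, CTR2, SMF1 and SMF3, both above it for CTR1, and both below it for ZRT3 and SMF2.

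**Figure D4:**
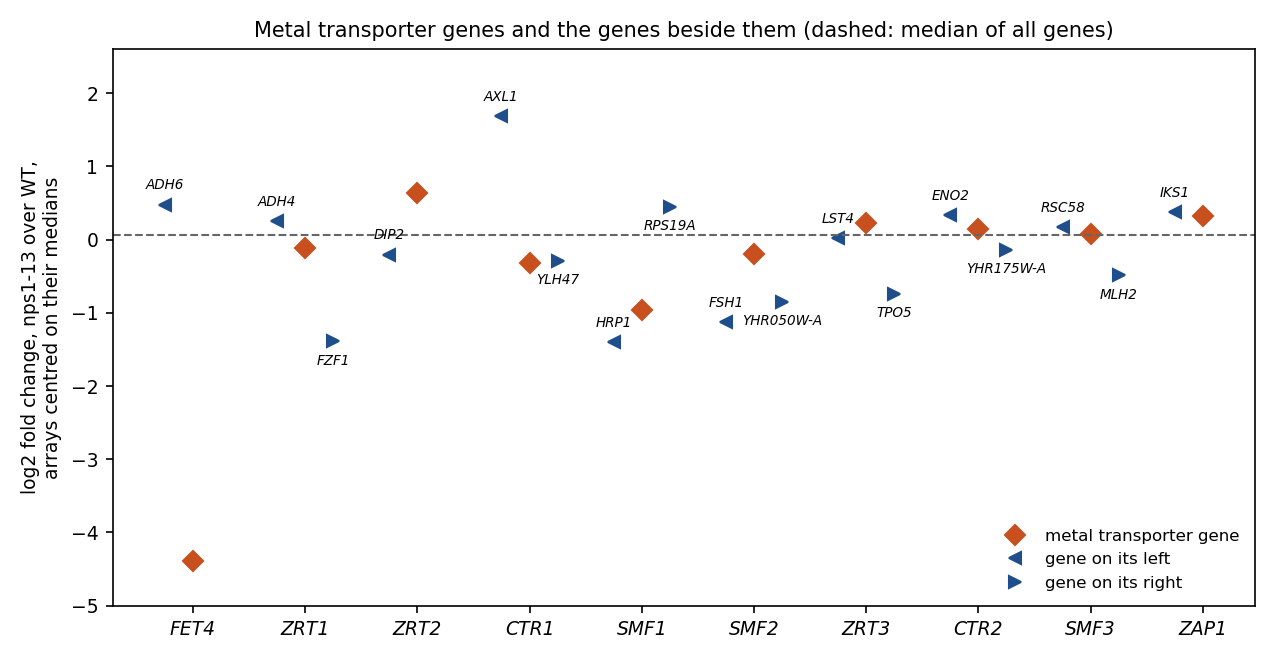
Log2 fold change, nps1-13 over WT, after each array was centred on its median, for each transporter gene (orange diamonds) and of the protein-coding genes to its left and right on the chromosome (blue triangles), where measured. The dashed line is the median of all genes at 0.06; FET4 is at -4.39 and its left neighbour ADH6 at 0.48.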

How the data were processed

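Total RNA of 2 WT (BY4743) and 2 nps1-13 (BYI-3) samples was measured on 1-colour Affymetrix Yeast Genome 2.0 arrays. The authors deposited intensity values (linear signals, 1 per probe set) from GCOS, for which the methods give default parameters and global scaling to 1 trimmed-mean target. The trimmed means of the deposited arrays nevertheless differ, from 3158 to 4285. No detection calls and no probe-level data were used here. Signals cannot be split into background and transcript, and the number of arrays limits the precision.

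Of 5558 probe sets, 5345 have 1 gene symbol in the platform annotation, 0 have several and 213 are unnamed here; all 5345 were matched by gene ID to the RefSeq R64 gene table. The 2 genes with more than 1 probe set were given by the brightest. Log2 signals of 5343 genes were fitted in R 4.3.3 with limma 3.58.1 (lmFit, eBayes with a trend), with no second normalization in the main setting, as the methods name global scaling, and Benjamini-Hochberg adjustment over all genes at 0.05. Prior degrees of freedom came out infinite as deposited, so those p-values lean on the spread pooled over genes and not on that of each gene. When centred they were 7.41, beside 2 residual degrees of freedom, so the spread of each gene also enters. The fit was tried on simulated data of 5343 genes with the arrays centred, and recovered 77.6% of 67 genes with a 1.5-fold change, 89.6% of 67 at 2-fold and 98.5% of 66 at 4-fold. Only these genes were changed there, with independent noise, while on the real centred arrays 42.6% of all genes were called higher and 34.7% lower. The simulation therefore does not test the centring or the error rate in these data, and calls of its unchanged genes are not given here. Tables and plots were made with Python 3.11.15, pandas 2.3.3 and matplotlib 3.10.9.

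The genes and lists were chosen with earlier results of these data known. Named are all 10 genes; from each list up to 4 genes with the largest centred change and the regulators; the flanking genes; and the 5 genes most like FET4. Other list genes named (DPP1, REE1, TRE1, TRE2, FET3, FTR1, HEM13) were chosen after their values were seen. Alternatives were centring, quantile normalization, a mean signal of at least 100 or 200, 32 added to the signal, no trend, averaged probe sets of a gene, a fit blocked on replicate number, and 1 array omitted at a time. As the labels tie same-numbered arrays to nothing shared, the main fit has no block.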

Additional observations from a re-analysis of the deposited data

How the results depend on the processing

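The scale between arrays decided most calls. The 10 genes split into 8 lower and 0 higher as deposited, beside 64.3% and 9.41% of all genes. With the arrays centred the split was 4 and 4. This also held without the trend, with a mean signal of at least 200 and with a replicate block. In these centred fits 33.6% to 36.3% of all genes were lower and 41.2% to 42.6% higher. After quantile normalization the split was 4 and 2, beside 37.7% and 36.4% of all genes. Leaving out 1 array at a time, on either scale, gave 3 to 8 lower and 0 to 4 higher, with 5 lower as deposited without nps1-13 replicate 2. FET4, SMF1, CTR1 and SMF2 stayed below 0 under all alternatives. ZRT2 stayed above 0, though it did not pass in the main fit. The direction turned for ZRT1 (0.063 after quantile normalization), ZRT3 (0.23 when centred, 0.067 by quantiles, 0.22 centred with a mean signal of at least 200), ZAP1 (0.33, 0.49 and 0.31 in the same order), CTR2 (0.14 when centred, 0.13 with the filter as well) and SMF3 (0.074 and 0.061). Centred, without WT replicate 1, WT replicate 2, nps1-13 replicate 1 and nps1-13 replicate 2 in turn, ZRT3 had 0.24, 0.21, 0.25 and 0.21, ZAP1 0.38, 0.28, 0.30 and 0.36, CTR2 0.15, 0.13, 0.14 and 0.14, and SMF3 0.10, 0.047, 0.091 and 0.056. All 4 genes were below 0 without any 1 array as deposited. FET4 stayed between -4.99 and -4.32 under every alternative. A ratio under 0.5 was met by 2 of the 10 genes as deposited (16.7% of all genes) and by 1 when centred (4.98%).

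The 89 genes of the related lists held 8 higher and 58 lower as deposited, beside 9.41% and 64.3% of all genes. They held 37 and 32 with centred arrays, beside 42.6% and 34.7%, and 29 and 35 by quantiles, beside 36.4% and 37.7%. The counts of the list genes lay near these shares. When centred, 34 were higher and 32 lower without the trend (41.2% and 33.6% of all genes). The counts were 34 and 35 with a mean signal of at least 200 (42.2% and 36.3%), and 36 and 31 with a replicate block (42.2% and 34.0%). Without the trend 5 were higher as deposited (8.27% of all genes). With 1 array left out, on either scale, 2 to 38 were higher and 24 to 61 lower (28, 24, 30 and 32 lower in the same order when centred), the lowest count of higher genes without nps1-13 replicate 1 as deposited. The replicate numbers are only names here. As deposited, the replicate block called 1 of the 10 genes higher, ZRT2 at 0.16 (limma adjusted p = 0.039), and 8 lower, beside 11.8% and 69.4% of all genes. Deviations of same-numbered arrays correlated at -0.12 over genes. With the numbers crossed, a fit chosen after seeing the data, 0 of the 10 genes were higher and 6 lower (7.06% and 56.1% of all genes). The calls of ZRT3 (limma adjusted p = 0.091) and SMF3 (0.055) were lost, and 5 of the list genes were higher and 53 lower. The centred fits with a filter or a block were also added after seeing the data. On the deposited scale, a mean signal of at least 100 or 200, 32 added to the signal and averaged probe sets moved no count by more than 1.5 times.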
